A study of Mus musculus with 6 samples.

Results

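The barcodes described here were those in which mitochondrially encoded transcripts made up 10% or more of the UMIs, among barcodes that held 500 or more UMIs (unique molecular identifiers, which let each captured molecule be counted a single time) and over 200 genes. There were 7269 such barcodes of 81815 that passed the UMI and gene limits, chosen by their counts of 13 mitochondrial genes, and they are called high-mt barcodes. The other 74546 are called low-mt barcodes. The mitochondrial values are therefore a description of the choice and were not tested.

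The tumours were orthotopic pancreatic tumours of C57BL/6 mice, harvested after injection of KPC cells that carried either a control vector (OE-Vector) or an MLKL overexpression construct (OE-MLKL). KPC cells come from a genetically engineered mouse model of pancreatic cancer. Mlkl encodes the pseudokinase that executes necroptosis. The labels name 6 tumours, and the analysis used the count matrices from OE-Vector 1 and OE-MLKL 1, 2 and 3. They held 150591289 to 169978362 UMIs per library, and every between-group value rests on 1 OE-Vector library. Whether the cells of a group were 1 clone is not given in the sources used here. Mlkl itself was at 13.7 counts per 1000000 non-mitochondrial UMIs (CPM) in the high-mt barcodes of OE-Vector 1. In those of OE-MLKL 1, 2 and 3 it was at 9.82, 12.7 and 16.9 CPM, so it did not separate the labels there. The construct was in the injected cells, and 13.9% of high-mt barcodes fell in the epithelial class defined below. These values therefore cannot show whether Mlkl was raised in the cancer cells. Whether the counted 3′ end of Mlkl is carried by the construct is not given in the sources used here.

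The mitochondrial genome encodes subunits of the respiratory chain, among them mt-Co1 (cytochrome c oxidase), mt-Nd1 (complex I) and mt-Cytb (complex III). All other subunits, and all proteins of the mitochondrial ribosome, are encoded in the nucleus and translated in the cytosol. A high mitochondrial share of a cell's RNA is widely used to remove damaged cells, in which cytosolic RNA has leaked out while RNA enclosed in mitochondria stays, but the share also differs between intact cell types. Absorptive cells of the intestine (enterocytes), for example, hold many mitochondria.

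High-mt barcodes made up 7.53% of passing barcodes in OE-Vector 1 (1253 of 16635, exact 95% binomial interval 7.14 to 7.94). The share was 7.91% in OE-MLKL 1 (1587 of 20054), 5.65% in OE-MLKL 2 (1382 of 24445) and 14.7% in OE-MLKL 3 (3047 of 20681). OE-MLKL 3 stood above the other 3 libraries, and OE-Vector 1 fell between OE-MLKL 1 and 2. The mean of the OE-MLKL libraries was 9.43% ± 4.73 (SD, n = 3), 1.90 points above OE-Vector 1 (exact two-sided permutation p = 0.75, where 1 library against 3 cannot give a p below 0.25). Without OE-MLKL 3 the difference turned to -0.749 points. Intervals here cover counting error only.

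The median mitochondrial share of high-mt barcodes was 37.3% in OE-Vector 1, 25.9% in OE-MLKL 1, 24.4% in OE-MLKL 2 and 31.1% in OE-MLKL 3. In low-mt barcodes the medians were 2.29% to 4.13%. In free RNA, taken from barcodes with 100 UMIs or fewer, the share was 8.61%, 8.24%, 7.39% and 15.2% in the same order of libraries, so that the library with the most high-mt barcodes also had the highest mitochondrial share in its free RNA. Whether the free RNA had a part in the share of high-mt barcodes was not tested. The share of UMIs was over 50% in 1390 high-mt barcodes (19.1%) and 80% or more in 116. High-mt barcodes held 10.4% to 27.6% of the mitochondrial UMIs of a library's passing barcodes.

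**Figure D1:**
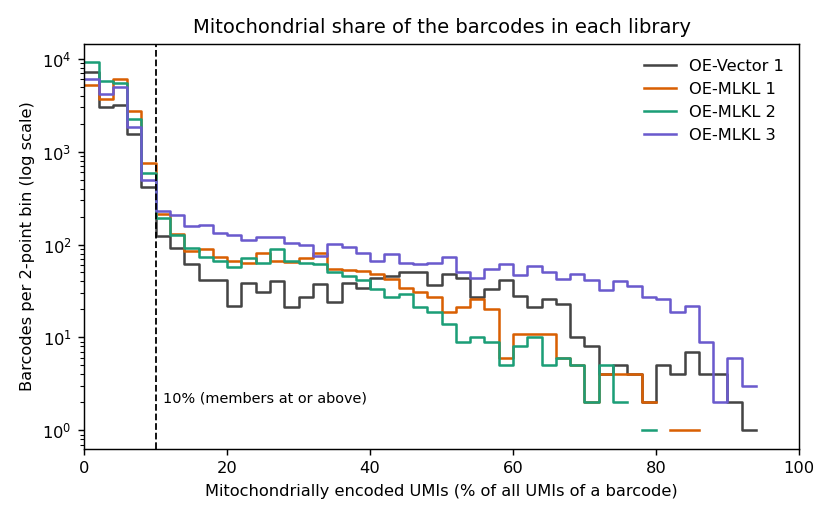
Number of barcodes per 2-point bin of mitochondrial share (log scale) against the mitochondrial share of UMIs in percent, one line per library, with the 10% threshold dashed. From 4% up to the threshold the counts fall steeply in each library. Beyond it lies a long tail, which is highest in OE-MLKL 3 over most of its length. The tail does not fall steadily in each library. In OE-Vector 1 it rises from 22 barcodes at 20 to 22% to 50 at 44 to 46%. In OE-MLKL 2 it rises from 57 at 20 to 22% to 89 at 26 to 28%.

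Over all passing barcodes, high-mt barcodes were shallower than low-mt barcodes once mitochondrial UMIs were set aside. In OE-Vector 1 and OE-MLKL 1, 2 and 3 their median depth was 1304, 1295, 1172 and 1281 UMIs without mitochondrial ones, against 1938, 5048, 3235 and 2734 in low-mt barcodes. Within the S100a8/S100a9 class, as defined below, the order was reversed in all libraries but OE-MLKL 3. In the same library order its medians were 1243, 837, 915 and 715.5 UMIs in high-mt barcodes. In its low-mt barcodes they were 1202, 743, 773 and 1418 UMIs. Under 500 non-mitochondrial UMIs remained in 10.6% to 13.9% of the high-mt barcodes of the first 3 libraries and in 24.1% of those of OE-MLKL 3. At the threshold itself the libraries differed. Over the 4 libraries, the 830 barcodes at 9 to 10% had a median of 10520 UMIs, and the 446 barcodes at 10 to 11% had a median of 7902 UMIs. Epithelial-class barcodes, as defined below, were 57.4% of the first and 46.9% of the second. In OE-Vector 1 the median went from 12320 to 3939 UMIs and the epithelial share from 56.4% to 39.7%. In OE-MLKL 2 the epithelial share was higher inside the threshold (67.9% against 62.4%), and in OE-MLKL 3 the median depth was (8791 against 8585 UMIs).

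The mitochondrial transcripts did not make up the mitochondrial fraction in the same proportions on both sides of the threshold. mt-Co1 (chromosome M, 5328 to 6872, plus strand, GRCm38) made up 23.6% ± 2.63 (SD, n = 4 libraries) of the mitochondrial UMIs of high-mt barcodes and 21.5% ± 3.02 in low-mt barcodes, and was higher in 4 of 4 libraries. mt-Nd1 (chromosome M, 2751 to 3707) made up 4.61% ± 0.852 against 6.35% ± 1.32, and was lower in each library. mt-Cytb (chromosome M, 14145 to 15288) was likewise lower in each, at 7.83% ± 0.959 against 9.17% ± 1.70. The ranges over libraries overlapped for all 3 genes, so that these orders hold within a library. The complex I transcripts differed in sign, with mt-Nd3 lower in 4 of 4 libraries (mean log2 ratio -0.44) and mt-Nd4l and mt-Nd5 higher in 4 of 4 (0.53 and 0.55). The ATP synthase transcript mt-Atp8 was also higher in 4 of 4 (0.60). These are proportions of one total and carry no test.

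The lineage of the high-mt barcodes was first read from the 4 marker sets of the rule. These are Krt8, Krt18 and Gm49504 (epithelial and cancer cells), C1qa and C1qb (complement genes of macrophages), S100a8 and S100a9 (calprotectin, abundant in neutrophils) and Cd3e (the T cell receptor complex). Barcodes were thinned to 300 non-mitochondrial UMIs so that depth was equal, and the share with a UMI of each set was taken. Shallower barcodes were left out, so that thinned shares are of 1207 of 1253, 1549 of 1587, 1359 of 1382 and 2730 of 3047 high-mt barcodes in OE-Vector 1 and OE-MLKL 1, 2 and 3 and of every low-mt barcode. The epithelial set was found in 25.4%, 30.7%, 33.8% and 29.3% of high-mt barcodes of OE-Vector 1 and OE-MLKL 1, 2 and 3, and in 10.8%, 16.8%, 17.9% and 10.7% of low-mt barcodes. Barcodes made only of free RNA would give 23.2% to 31.5% at this depth. In each library the low-mt share was below that value, and the high-mt share was nearer to it. The part of free RNA in either share was not tested. The difference of 15.8 points ± 2.05 between high-mt and low-mt barcodes had the same sign in 4 of 4 libraries (exact sign-flip p = 0.13, the smallest that 4 libraries allow).

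The C1q and S100a8/S100a9 sets were below the shares that free RNA alone would give on both sides of the threshold. C1qa or C1qb was found in 18.6% ± 8.10 of high-mt and 19.6% ± 5.72 of low-mt barcodes (p = 0.75, exact sign-flip test), where free RNA would give 27.6% to 51.1%. S100a8 or S100a9 was found in 42.0% ± 11.9 against 47.6% ± 8.06 (p = 0.25, exact sign-flip test), where free RNA would give 68.0% to 94.4%. The difference of -5.63 points turned to 2.13 points when barcodes were thinned to 600 UMIs. Cd3e was found in 0.507% ± 0.338 against 1.12% ± 0.631 and was lower in 4 of 4 libraries (exact sign-flip p = 0.13). Without thinning, S100a8 or S100a9 was seen in 58.5% to 91.4% of high-mt barcodes and the epithelial set in 61.2% to 70.7%.

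The epithelial value came mainly from 1 gene of its set. Krt8 was found in 19.0%, 19.1%, 24.4% and 24.1% of thinned high-mt barcodes against 5.07%, 6.41%, 9.64% and 6.19% of low-mt barcodes, in the library order used above. Krt18, its keratin partner, was found in 6.71%, 10.6%, 8.53% and 5.85% against 5.89%, 8.16%, 7.84% and 4.07%. Gm49504, a long non-coding RNA, was found in 1.85%, 5.28%, 4.56% and 1.52% against 0.985%, 4.15%, 2.73% and 1.30%. Krt8 was therefore over 2 times as frequent in high-mt barcodes of each library, while Krt18 and Gm49504 were under 2 times as frequent in each.

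A fixed list of enterocyte markers separated the 2 sides of the threshold more widely than any set of the rule. The list holds Apoa1 and Apoa4 (apolipoproteins of dietary lipid export), Fabp1 and Fabp2 (fatty acid binding proteins), Vil1 (villin of the brush border) and Reg3b (a secreted antimicrobial lectin). Apoa1 (chromosome 9, 46228580 to 46230466, GRCm38) was at 4762, 3273, 4814 and 8453 CPM in high-mt barcodes of OE-Vector 1 and OE-MLKL 1, 2 and 3, and at 47.9, 31.5, 50.7 and 218 CPM in low-mt barcodes. The groups did not overlap. Over the whole list the summed level was 7570 to 16530 CPM in high-mt barcodes, 86.5 to 336 CPM in low-mt barcodes and 1019 to 1681 CPM in free RNA. After thinning, a UMI of the list was found in 56.7%, 57.6%, 48.3% and 70.8% of high-mt barcodes and in 4.47%, 5.85%, 3.81% and 13.4% of low-mt barcodes, where free RNA would give 26.4% to 39.6%.

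Each barcode was therefore given a marker class, by the set whose share of its non-mitochondrial UMIs was highest relative to free RNA, with the enterocyte list as an added set. The use of the enterocyte list as a class was chosen after its values were seen. A class needed at least 2 UMIs of its set and a relative share above 0.5. The enterocyte class held 4019 of the 7269 high-mt barcodes (55.3%) and 1354 low-mt barcodes (1.82%). Its share of high-mt barcodes was 52.99%, 52.6%, 43.3% and 63.0% in OE-Vector 1 and OE-MLKL 1, 2 and 3, against 0.930%, 0.801%, 0.646% and 5.18% of low-mt barcodes. The other classes held smaller shares of the high-mt barcodes, with 1007 epithelial (13.9%), 864 S100a8/S100a9 (11.9%), 447 C1q (6.15%) and 53 Cd3e (0.729%), and 879 (12.1%) had no class. With the 4 sets of the rule alone, 2807 high-mt barcodes were epithelial (38.6%) and 2053 had no class. Within 0.1 of the limit on relative share lay 36 barcodes of the enterocyte class, 1061 of the epithelial class, 77 of the C1q class and 308 of the S100a8/S100a9 class.

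**Figure D2:**
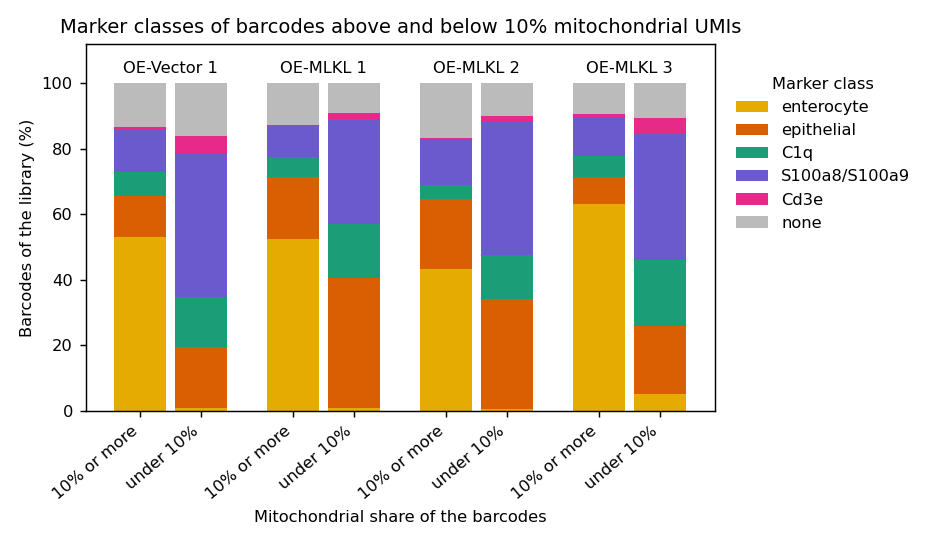
Share of barcodes in each marker class (percent of the library's barcodes on that side of the threshold), for barcodes with 10% or more and under 10% mitochondrial UMIs in each of the 4 libraries. The enterocyte class makes up 43.3% to 63.0% of the high-mt bars and 0.646% to 5.18% of the low-mt bars.

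Read the other way, and with the enterocyte list as an added set, most barcodes of the enterocyte class passed the 10% threshold, and few of any other class did. The high-mt share of the enterocyte class was 82.3% (exact 95% binomial interval 79.5 to 84.9) in OE-Vector 1, 84.9% in OE-MLKL 1, 80.1% in OE-MLKL 2 and 67.8% in OE-MLKL 3. It was 3.69% to 6.39% of the epithelial class, 1.86% to 5.35% of the C1q class, 2.00% to 5.11% of the S100a8/S100a9 class and 1.51% to 3.04% of the Cd3e class. With the 4 sets of the rule alone, the rates were 6.87% to 23.1% of the epithelial class and 2.33% to 11.3% of the C1q class. They were 3.39% to 8.13% of the S100a8/S100a9 class and 1.53% to 3.37% of the Cd3e class. Of barcodes without a class under those 4 sets, 12.2% to 26.0% were high-mt. In the epithelial, C1q, S100a8/S100a9 and Cd3e classes, and in barcodes without a class, OE-MLKL 3 had the highest rate. In the enterocyte class it had the lowest. Depth was not equalised for these rates, and a class needs at least 2 UMIs of its set. High-mt barcodes had median depths of 4973 and 3813 non-mitochondrial UMIs in the epithelial and Cd3e classes. The medians were 1251, 1140 and 938.5 in the enterocyte, C1q and S100a8/S100a9 classes. The part of depth in the rates was not tested. Without the enterocyte class, 3.72% of barcodes of OE-Vector 1 and 4.52% ± 1.58 (n = 3) of OE-MLKL barcodes were high-mt (exact permutation p = 0.75).

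**Figure D3:**
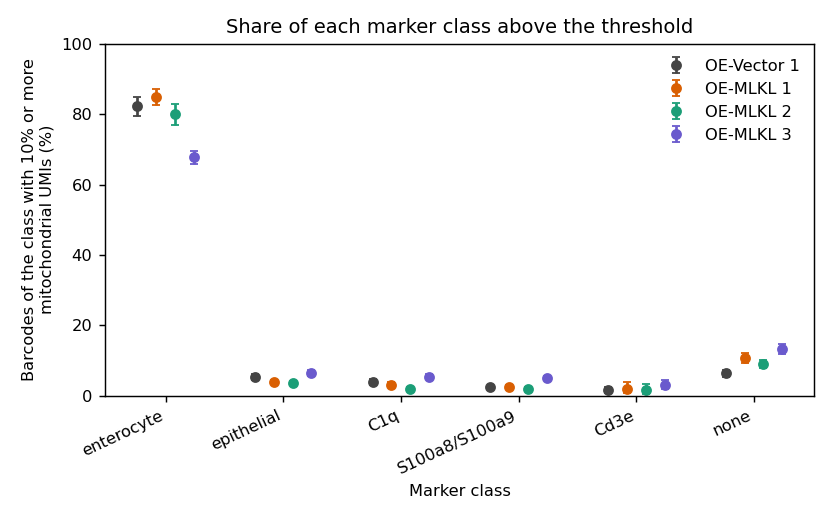
Percent of the barcodes of each marker class that had 10% or more mitochondrial UMIs, one point per library with its exact 95% binomial interval. The enterocyte class lies between 67.8% and 84.9%, and the other classes, with the barcodes of no class, lie at or below 13.1%.

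In most high-mt barcodes the class assignment rested on several genes per barcode. The same genes set the class, so that these counts are a description. High-mt barcodes of the enterocyte class carried a median of 4 of the 6 list genes, and 80.1% (3220 of 4019) carried at least 3. At least 3 were carried by 4.92% of the other high-mt barcodes and by 31.5% of the low-mt barcodes of the enterocyte class, whose median was 2 list genes. Over all libraries together, the enterocyte share was 26.6% of barcodes at 10 to 15%, 47.7% at 15 to 20%, 63.1% at 20 to 30% and 72.5% at 30 to 50%, then 59.7% at 50 to 80% and 34.5% above. The libraries parted in the range of 50 to 80%, where the share was 80.3% in OE-Vector 1 and 73.7% in OE-MLKL 1 (71.7% and 72.2% at 30 to 50%), but 26.4% in OE-MLKL 2 and 51.5% in OE-MLKL 3 (57.7% and 80.5% at 30 to 50%). In the highest range, 28.5% of 116 barcodes had no class and the median depth was 283.5 non-mitochondrial UMIs. The epithelial class fell from 34.2% at 10 to 15% to 2.98% at 50 to 80%. None of the 116 barcodes at 80% or more was in it, which as a count allows a class share of up to 2.59%. The class needs at least 2 UMIs of its set, so shallow epithelial barcodes can be missed at this depth. Barcodes that carried 2 of the marker sets of the rule were 14.8% of high-mt and 6.97% of low-mt barcodes. No doublet caller was run. Between 1.76% and 1.89% of the high-mt barcodes of a library also passed the limits in another library, as did 1.72% to 1.89% of low-mt barcodes.

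Non-mitochondrial genes were next compared between high-mt and low-mt barcodes, on UMI sums per library with mitochondrial genes left out of the totals. In edgeR's quasi-likelihood test with the library as a block, 2900 of 16872 genes were higher (17.2% of genes tested) and 4105 were lower (24.3%) in high-mt barcodes at an adjusted p under 0.05. Among the 6 largest differences was that of Akp3, a duodenal alkaline phosphatase, which was at 113.5, 47.4, 195.2 and 701 CPM in high-mt barcodes and at 0.567, 0.282, 1.57 and 12.9 CPM in low-mt barcodes, a log2 fold change of 6.60 ± 0.25 (SE). Slc13a1, a sulphate transporter, had 6.54 ± 0.20 and Abcc2, an apical export pump, had 6.51 ± 0.20. Gm3054, Gm10680 and Gpr151 completed the 6 largest. Apoa1 had 6.11 ± 0.21 and Vil1 had 5.96 ± 0.17, and all 6 genes of the enterocyte list were higher. Of the rule's markers Krt8 was higher (0.70 ± 0.17), C1qa (-0.86 ± 0.09), C1qb (-0.88 ± 0.09) and Cd3e (-0.79 ± 0.14) were lower, and Krt18, Gm49504, S100a8 and S100a9 did not pass. Gm13610 and A430088P11Rik were at 0 in the high-mt barcodes of each library, and Tmem100, Tdo2 and the granzyme Gzmd (-3.30 ± 0.37) were also among the 6 lowest.

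The split between higher and lower depended on the scaling. With TMM, which centres the bulk of genes, 41.4% of called genes were higher. With totals alone 62.9% were, and the median log2 fold change of all genes moved from -0.08 to 0.10. Differences are given with TMM, and counts without TMM stand beside each list whose direction they change.

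With the enterocyte class left out, 3250 high-mt barcodes remained, and 2585 of 16527 genes were higher (15.6%) and 3920 lower (23.7%). Without TMM, 75.7% rather than 39.7% of called genes were higher and the median of all genes was 0.20. The 6 genes of largest fold change were Cftr (the chloride channel of epithelial ducts and crypts), Sh2d6, Nlrp6 (an inflammasome sensor of intestinal epithelium), Ttr, Dmbt1 (a secreted mucosal glycoprotein) and H2-T3, with log2 fold changes of 3.74 to 4.71. The 6 lowest, Csf3, Gm37168, Gm13610, Kif1a, Gm44672 and 4930597O21Rik, were at 0 in the high-mt barcodes of each library and at most at 3.65 CPM in low-mt barcodes. The enterocyte list did not vanish with its class. Its genes decided which barcodes were left out, by at least 2 UMIs and a relative share above 0.5. The list's values below are therefore a description, and the part of depth in them was not tested. The summed level of the list was 490, 563, 369 and 698 CPM in the remaining high-mt barcodes and 69.3, 110.2, 62.0 and 235 CPM in the remaining low-mt barcodes, and 6 of 6 genes were still higher. Krt8, which was higher over all barcodes, was not in these (-0.09, adjusted p = 0.444). The part of the enterocyte list in the other differences of these barcodes was not tested.

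Among these remaining barcodes, Malat1 (chromosome 19, 5795690 to 5802672, minus strand), a long non-coding RNA held in nuclear speckles, was at 34510, 32220, 27820 and 48660 CPM in high-mt barcodes of OE-Vector 1 and OE-MLKL 1, 2 and 3. In low-mt barcodes it was at 15180, 12160, 10650 and 29670 CPM. It was higher in 4 of 4 libraries (log2 fold change 0.92 ± 0.08), and only OE-MLKL 3 made the groups overlap. Of the mixed list of nuclear-retained and ribosomal RNA-like transcripts 6 of 8 were higher, namely Malat1, Neat1, AY036118, Lars2, Gm26917 and Gm42418 (1.20 ± 0.13), whose locus overlaps ribosomal RNA sequence. Whether intronic reads were counted is not given in the sources used here, and its part in the levels of nuclear RNA was not tested.

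The lists of cytosolic ribosomal protein genes and of abundant cytosolic transcripts were lower as groups. Of the cytosolic ribosomal protein genes 81 of 84 were lower and 0 were higher, with a median log2 fold change of -0.67 against -0.05 for all genes tested. Their summed level was 167400, 186000, 169600 and 123100 CPM in high-mt barcodes against 214000, 253800, 230900 and 159100 CPM in low-mt barcodes, lower in 4 of 4 libraries. Rpl7, of the large subunit, went from 2137, 2026, 1990 and 1370 CPM in low-mt barcodes to 1665, 1538, 1525 and 1071 CPM in high-mt barcodes. All 15 abundant cytosolic transcripts tested, which include Actb, Tmsb4x and Ftl1, were lower, with a median of -0.66. Without TMM 79 of the ribosomal protein genes and 14 of the 15 stayed lower.

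Several lists of nuclear genes for mitochondrial proteins were lower as well. Of nuclear-encoded respiratory chain subunits 78 of 83 were lower and 0 higher (median -0.49). Of mitochondrial ribosomal proteins 72 of 78 were lower (median -0.52), and 12 of 12 genes of mitochondrial import and the outer membrane were lower. Without TMM these counts were 56, 47 and 10. Of genes that transcribe and maintain mitochondrial DNA 3 of 13 were higher and 3 lower, near the 15.6% and 23.7% of all genes, with Polrmt, the mitochondrial RNA polymerase, among the higher (0.42 ± 0.14). Of the 6 biogenesis regulators Ppargc1a (0.83 ± 0.32) and Esrra (0.27 ± 0.09) were higher, with Ppargc1a at 2.85 to 5.53 CPM in high-mt barcodes.

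The label of stressed cells was checked against lists of stress genes, first without the enterocyte class, where 15.6% of all genes were higher and 23.7% lower. Of heat shock genes 12 of 14 were lower and 0 higher (median -0.39). Dnajb1, a co-chaperone, was at 54.8, 48.8, 45.0 and 78.1 CPM in high-mt barcodes against 67.9, 52.96, 63.1 and 124.3 CPM in low-mt barcodes (-0.66 ± 0.08). Of the integrated and mitochondrial stress response genes, which include Atf4, Ddit3 and Gdf15, 14 of 18 were lower and 0 higher. Of immediate early genes, which cell dissociation is known to induce, 19 of 21 were lower, with Fos at 1127, 2221, 1687 and 2275 CPM against 1458, 2616, 2369 and 3344 CPM (-0.67 ± 0.07). Of p53 and apoptosis genes 1 of 15 was higher and 3 lower, and of necroptosis and gasdermin genes 1 of 10 was higher (Gsdmd) and 3 lower (Ripk3, Zbp1 and Fadd), and both lists lay near the shares of all genes. Without TMM the counts were 6 lower for heat shock (6 also with depth weighting, in which low-mt barcodes were weighted to the depths of the high-mt barcodes), 1 higher and 5 lower for the stress response (1 and 7 with depth weighting), 14 lower for immediate early genes and 7 higher and 2 lower for p53 genes, where 5155 of all 16527 genes were higher and 1654 lower.

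Over all high-mt barcodes, where 17.2% of genes were higher and 24.3% lower, heat shock genes were lower in 12 of 14 and stress response genes in 12 of 18, with 0 higher in both lists. Of 21 immediate early genes 1 was higher and 17 lower, of 15 p53 and apoptosis genes 3 were higher and 3 lower, and of 10 necroptosis and gasdermin genes 2 were higher and 1 lower. These counts are with TMM, and without it 62.9% rather than 41.4% of all called genes over all barcodes were higher. Under depth weighting Fosb, Asns and Mdm2 changed sign over all barcodes and did not pass. Within the enterocyte class, heat shock genes were lower in 5 of 12 and stress response genes in 7 of 17, again with 0 higher. There 2 of 21 immediate early genes were higher and 3 lower, and Mdm2, Pmaip1 and Sesn1 of 14 p53 and apoptosis genes were higher and 2 lower. Ripk1, Casp8 and Gsdmd of 10 necroptosis and gasdermin genes were higher and 0 lower, where 21.2% of all genes were higher and 18.1% lower. At least 3 list genes were carried by 31.5% of the low-mt and 80.1% of the high-mt barcodes of the enterocyte class. The part of this difference in the calls of the class was not tested. The barcodes are named here by the mitochondrial share that chose them.

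Within the epithelial class, the 1007 high-mt barcodes differed from 21664 low-mt barcodes in 2103 genes that were higher and 3097 that were lower of 14898 tested (14.1% and 20.8%). Without TMM 79.2% rather than 40.4% of called genes were higher. Malat1 was at 34500, 31370, 26750 and 54290 CPM in high-mt and 15110, 12980, 11180 and 34220 CPM in low-mt barcodes (0.84 ± 0.07). Cytosolic ribosomal protein genes were lower in 81 of 82, all 15 abundant cytosolic transcripts and all 21 immediate early genes were lower, and heat shock genes were lower in 11 of 14 (6 without TMM), with 0 higher in these lists. Fos fell by 0.87 ± 0.06 and Dnajb1 by 0.96 ± 0.10 on the log2 scale. Cell cycle genes were lower in 10 of 12, and Mki67 was higher (0.22 ± 0.09). With low-mt barcodes weighted to the depths of the high-mt barcodes, 2 cell cycle genes were higher and 3 were lower.

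No marker of the epithelial class itself was called as lower. Gm49504 was at 237, 446, 396 and 301 CPM in high-mt barcodes and at 149, 286, 214 and 160 CPM in low-mt barcodes (0.52 ± 0.07), while Krt8 (-0.17 ± 0.08) and Krt18 did not pass. Since these genes define the class, their levels are a description. The 6 largest differences were in Cftr, Dmbt1, Ttr, Pdzk1ip1, Ambp and Adh1, with log2 fold changes of 3.90 to 4.70. Dmbt1 was at 4.69, 193.6, 132.1 and 225.5 CPM in high-mt barcodes and at 0.645, 2.99, 14.6 and 10.3 CPM in low-mt barcodes, so that OE-Vector 1 stood far below the OE-MLKL libraries. Epcam, the epithelial adhesion molecule, was at 16.4, 28.4, 39.5 and 174 CPM against 3.20, 3.47, 3.75 and 15.5 CPM. The enterocyte list beside these values was at 171, 179, 106 and 467 CPM in high-mt barcodes and 50.02, 93.5, 48.5 and 189 CPM in low-mt barcodes, and its part was not tested. The lowest 6 were Upk3b, Gm13610, Gm28818, Gm44672, the imprinted RNA Meg3 and the islet hormone Iapp, the first 4 at 0 in high-mt barcodes.

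The C1q class gave fewer calls. Of 12369 genes 358 were higher (2.89%) and 575 lower (4.65%) in its 447 high-mt barcodes, and without TMM 76.2% rather than 38.4% of called genes were higher. Malat1 was at 22060, 26690, 20300 and 25580 CPM in high-mt barcodes against 10410, 6390, 6237 and 18120 CPM in low-mt barcodes, without overlap (1.14 ± 0.11). Cytosolic ribosomal protein genes were lower in 79 of 82, in 67 without TMM and in 59 of 81 with low-mt barcodes weighted by depth, where Rpl7 lost its call (adjusted p = 0.202). Nuclear-encoded respiratory chain subunits were lower in 29 of 83 (5 without TMM and 3 with depth weighting). Heat shock genes were lower in 3 of 14 (0 of 8 with depth weighting), and of 17 stress response genes 1 was lower and 0 higher. Of 21 immediate early genes Fosb and Nr4a1 were higher and none passed as lower. With depth weighting neither passed (adjusted p = 0.0711 and 0.294), and Fosb was lower in OE-MLKL 3, at 777 against 970 CPM. The macrophage elastase Mmp12 was at 41.0, 0, 13.6 and 4.54 CPM in high-mt and at 403, 28.0, 47.4 and 32.5 CPM in low-mt barcodes (-3.37 ± 0.32). The other 5 lowest were Lcmt2, Gm807, Prg4, Serpina3f and Prelid2. Lcmt2 and Gm807 were at 0 in the high-mt barcodes of each library, and Prg4, Serpina3f and Prelid2 were at most at 6.82 CPM. The low-mt means were also low, at 5.65 CPM for Lcmt2, 5.46 for Gm807, 7.52 for Prg4, 15.99 for Serpina3f and 17.4 for Prelid2. Without TMM, Lcmt2 and Gm807 did not pass (edgeR adjusted p = 0.0538 and 0.0762). None of the 6 lowest was tested with depth weighting. The 6 largest were intestinal or unassigned, namely Fabp1, Mgam, Fabp2, Oit1, Adh6a and Myo15b, beside an enterocyte list at 579, 1640, 543 and 666 CPM in high-mt barcodes against 82.5, 139, 75.03 and 250 CPM. Fabp1 and Fabp2 are on that list, which decided the barcodes left out, so that their values are a description. The number of calls was 543 without OE-Vector 1, 461 without OE-MLKL 1 and 616 without OE-MLKL 2, and leaving out OE-MLKL 3 gave 1017.

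In the 864 high-mt barcodes of the S100a8/S100a9 class 657 of 11621 genes were higher (5.65%) and 947 lower (8.15%), and 87.6% rather than 41.0% of called genes were higher without TMM. Cytosolic ribosomal protein genes were lower in 11 of 83, with 0 lower without TMM and 37 lower with depth weighting, and their summed level was higher in 3 of 4 libraries. Of heat shock genes none of 14 passed in either direction, and of immediate early genes 15 of 21 were lower (2 without TMM and 5 with depth weighting) and 2 were higher, Klf4 and Fosb (0.58 ± 0.12, higher in 4 of 4 libraries). Malat1 was higher by 0.49 ± 0.13, with overlapping groups. Gm26917, an annotated long non-coding RNA, was at 928, 1376, 1073 and 1135 CPM in high-mt barcodes and at 73.5, 61.3, 117.8 and 142 CPM in low-mt barcodes (3.32 ± 0.16). S100a8 and S100a9 define the class, so that their levels are a description, with S100a8 at 15740 to 19110 CPM against 20950 to 23080 CPM. With them, all 10 neutrophil markers were lower with TMM and 6 without, where Csf3r was among those that did not pass (adjusted p = 0.0922). Of the epithelial markers 6 of 13 were higher. The enterocyte list was at 1863, 2281, 1408 and 886 CPM against 185, 287, 167 and 477 CPM, and the part of this mixture was not tested. The 6 largest, besides Gm26917, were Slc13a1, Cobl, Cgn, Pck1 and Clec2h, and the 6 lowest were Hyal1, Wdr55, Grap, Gm4221, D630023F18Rik and Abhd15. The number of calls was 502 without OE-Vector 1, 693 without OE-MLKL 2 and 988 without OE-MLKL 3, and leaving out OE-MLKL 1 gave 2381.

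**Figure D4:**
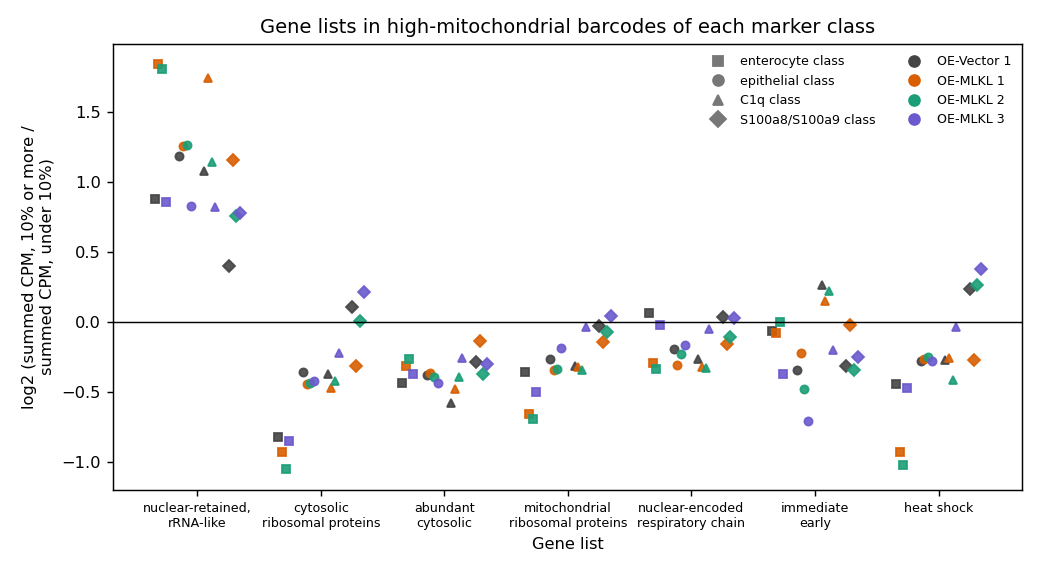
Log2 ratio of the summed level (CPM) of each of 7 gene lists in high-mt over low-mt barcodes, by marker class (symbol) and library (colour). The nuclear-retained and ribosomal RNA-like list lies above 0 at each point, and cytosolic ribosomal proteins lie below 0 at each point except in the S100a8/S100a9 class, where OE-MLKL 1 alone is below.

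Within the enterocyte class, 4019 high-mt barcodes were set against 1354 low-mt barcodes, and 2142 of 10107 genes were higher (21.2%) and 1832 lower (18.1%). Without TMM 45.4% rather than 53.9% of called genes were higher, and the median of all genes moved from -0.06 to -0.14. The enterocyte list defines the class and is not a result here, and its summed level was 21140 to 41750 CPM in high-mt and 4052 to 10690 CPM in low-mt barcodes. The low-mt barcodes of the class were therefore poorer in the genes that put them there. They also held fibroblast genes, with Col1a1 at 96.3, 141, 130 and 413 CPM against 39.3, 17.5, 19.2 and 73.7 CPM in high-mt barcodes, and acinar markers at 20800 CPM in OE-Vector 1 and 4758 CPM in OE-MLKL 1, but at 30.2 and 30.5 CPM in OE-MLKL 2 and 3. The part of these cells in the comparison was not tested.

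The 6 largest differences in the enterocyte class were in genes that were not on the list. The disaccharidase Treh was at 227.5, 82.2, 190.0 and 174 CPM against 11.1, 8.94, 28.2 and 19.1 CPM in low-mt barcodes (3.32 ± 0.20). The sodium-glucose transporter family member Slc5a9 (3.62 ± 0.45), the export transporter Slc47a1 (3.41 ± 0.26), Mettl7b, 2010001M07Rik and the lactase gene Lct completed the 6 largest. Col5a2, Col1a1, Cd79a, Aebp1, Fscn1 and Fbln2 were the 6 lowest. Of the 6 biogenesis regulators 3 were higher and 3 did not pass, where 21.2% of all genes were higher. The 3 were Ppargc1a (2.65 ± 0.23), Ppargc1b (2.23 ± 0.29) and Esrra (1.79 ± 0.15), with Esrra at 145, 125, 144 and 122 CPM against 31.5, 39.3, 44.3 and 43.7 CPM. Gsdmd, the pore-forming gasdermin, was at 332, 235.5, 249 and 272 CPM against 46.3, 45.6, 70.5 and 67.2 CPM (2.29 ± 0.17), and Casp8 was higher by 1.32 ± 0.16. Mlkl did not pass in this class (-0.07 ± 0.27), at 9.82, 9.01, 10.7 and 15.9 CPM in high-mt barcodes. Cytosolic ribosomal protein genes were lower in 80 of 82. Of respiratory chain subunits 11 of 79 were higher and 15 lower, near the shares of all genes.

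Pigr, the receptor that carries immunoglobulins across epithelium, was chosen after its values were seen. It was higher in the epithelial, C1q, S100a8/S100a9 and enterocyte classes, with log2 fold changes of 2.67, 3.001, 3.20 and 2.92. Many other genes were also called higher in all 4 classes, among them Npc1l1, Sis, Epcam and Alpi. Others, such as Col1a2, Ifi27l2a and Rpl10, were called lower in all 4. The barcodes of each class came from the same 4 libraries, and the part of free RNA in these shared calls was not tested.

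**Figure D5:**
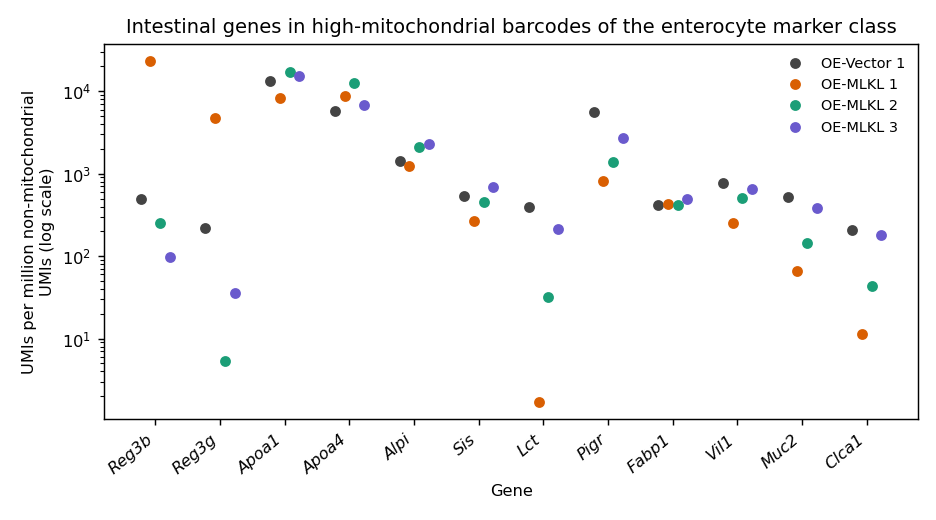
Level of 12 intestinal genes in high-mt barcodes of the enterocyte class, in counts per 1000000 non-mitochondrial UMIs (CPM, log scale), one point per library. Fabp1 lies between 422 and 491 CPM in all 4 libraries, while Reg3b runs from 98.6 to 23290 CPM, and both belong to the list that defines the class.

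The levels of intestinal genes in the high-mt barcodes of the enterocyte class are given by library as a description, since Fabp1, Apoa4, Apoa1 and Reg3b are among the genes that define the class. Fabp1 was at 422, 427, 423 and 491 CPM in OE-Vector 1 and OE-MLKL 1, 2 and 3, and over all high-mt barcodes at 152.7, 171.4, 120.2 and 306.7 CPM. Apoa4 was at 5788, 8870, 12470 and 6728 CPM. Reg3b was at 487, 23290, 254 and 98.6 CPM, highest in OE-MLKL 1, and its relative Reg3g was at 222, 4694, 5.34 and 35.7 CPM in the same libraries. Lct, which is expressed along the proximal small intestine, was at 396, 1.69, 32.0 and 216 CPM, lowest where Reg3b was highest. The goblet cell genes Muc2 (525, 65.9, 145 and 387 CPM) and Clca1 (209, 11.3, 43.8 and 181 CPM) were also lowest in OE-MLKL 1. The stem cell marker Olfm4 was at 0 to 3.02 CPM. OE-Vector 1 was inside the span of OE-MLKL values for Reg3b, Reg3g and Apoa1, and above it for Lct, Muc2 and Clca1. It was below that span for Apoa4 and, narrowly, for Fabp1.

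Between OE-MLKL and OE-Vector, no gene of 13522 passed in high-mt barcodes in edgeR's quasi-likelihood test, while 759 had an unadjusted p under 0.05 and DESeq2 called 42. With 1 OE-Vector library the test has 2 residual degrees of freedom, all from OE-MLKL, and OE-Vector 1 is taken to vary as much as those do. Without OE-MLKL 3, edgeR called 564 genes, 142 higher and 422 lower in OE-MLKL. A difference between 1 tumour and the others cannot be told apart here from a difference between the groups. Whether the log2 fold change of high-mt over low-mt barcodes differed between the groups was tested as an interaction. Over all barcodes 0 of 16872 genes passed (538 at an unadjusted p under 0.05), and within the classes without enterocyte barcodes 4 to 11 genes passed.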

How the data were processed

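Droplet 3′ single-cell libraries of orthotopic tumours were used, 1 tumour per library. For each of the 4 libraries used here the authors deposited a matrix of whole-number UMI counts, with empty droplets kept and no scaling, over 32285 genes (mm10 per the labels). The file headers give Cell Ranger 7.1.0 and the submitters' processing notes 2.1.1, and whether intronic reads were counted is not given in the sources used here. The barcodes, gene lists and the enterocyte class were chosen with earlier results of these data known. Within the rule-set classes a barcode needed at least 2 UMIs of its set and a relative share above 0.5 of that in barcodes with 100 UMIs or fewer.

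UMI sums per library and side of the threshold were tested with edgeR 4.0.16 in R 4.3.3 (TMM, filterByExpr, quasi-likelihood, Benjamini-Hochberg at 0.05, library as block, which pairs both sums of a tumour), with DESeq2 1.42.0 as an alternative. The test was checked on simulated data. Standard errors were derived from the F statistic. Named genes were the rule's markers, the 6 largest and 6 smallest log2 fold changes past the threshold with 1 direction in 4 libraries and at least 100 UMIs over the sums, and up to 4 called genes per fixed list. Part of the genes this rule names are described, and 1 of the 6 lowest over all barcodes is not reported here. Other genes named were chosen after their values were seen. Positions are from GENCODE on GRCm38. Intervals cover counting error only.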

Additional observations from a re-analysis of the deposited data

Results flagged for a closer look

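The barcode lists of OE-Vector 2 and 3, whose count matrices were not analysed here, contain 99.2% (7208 of 7269) and 98.2% (7138 of 7269) of the high-mt barcode sequences of the other libraries. Of all barcodes of a library, empty droplets included, 57.7% to 65.9% stood in the list of OE-Vector 2 and 62.3% to 64.4% in that of OE-Vector 3. The share of low-mt barcodes in these lists was not taken. The overlap is therefore not shown to be particular to high-mt barcodes. The lists carry no counts, and the lists of the 4 libraries with a matrix held 97.8% to 99.8% of each other's high-mt barcodes.

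For some genes the log2 fold change of high-mt over low-mt barcodes differed between OE-MLKL and OE-Vector by the interaction term of edgeR. In the C1q class that includes enterocyte barcodes, 12 genes passed, and 3 of them were named by the rule for named genes. The difference was -1.29 ± 0.27 for Apoa1 (adjusted p = 0.0498), -1.36 ± 0.28 for Apoa4 (adjusted p = 0.0402) and -1.71 ± 0.35 for Epcam (adjusted p = 0.0396). The log2 ratio of Apoa1 was 6.81 for OE-Vector 1 against 6.04, 5.52 and 4.79 for OE-MLKL 1, 2 and 3. With the enterocyte class left out, none of these 3 genes passed in the C1q class. In the epithelial class without enterocyte barcodes, 11 genes passed, of which the rule named Apoa1, with a difference of -0.92 ± 0.18 (adjusted p = 0.0299), with ratios of 1.79 in OE-Vector 1 and 1.13, 1.02 and 0.71 in the OE-MLKL libraries. Genes outside the rule, chosen after their values were seen, also passed with the opposite sign, such as the macrophage gene Chil3 in the C1q class (3.23 ± 0.47, adjusted p = 0.000385). Each difference sets 1 library against 3. Apoa1 is also on the list that decided which barcodes were left out.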

How the results depend on the processing

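The library block pairs both sums of the same tumour. With no replicate block, the counts of called genes fell from 7005 to 1928 over all barcodes, and with the 4 sets of the rule alone from 6634 to 2065 in the epithelial class, from 2559 to 770 in the C1q class and from 2950 to 1078 in the S100a8/S100a9 class. With the enterocyte class left out they fell from 6505 to 0 over all barcodes, from 5200 to 0 in the epithelial class, from 933 to 47 in the C1q class and from 1604 to 25 in the S100a8/S100a9 class, and in the enterocyte class from 3974 to 1878. No paired analysis was run for OE-MLKL against OE-Vector, because each library is a different tumour and the labels pair no tumours across the groups.

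With the 4 sets of the rule, the C1q class gave 1230 calls with low-mt barcodes weighted to the depths of the high-mt barcodes, 1536 with the higher marker cut and 933 without enterocyte barcodes, and the S100a8/S100a9 class gave 1604 without enterocyte barcodes and 1800 to 3247 when 1 library was left out (1800 without OE-Vector 1 and 1940 without OE-MLKL 3). Without enterocyte barcodes, DESeq2 gave 471 calls in the C1q class and 969 in the S100a8/S100a9 class, depth weighting gave 337 and 497, and leaving out 1 library gave 461 to 1017 and 502 to 2381. Between the groups the count of 0 became 42 with DESeq2, 3 with no filter beyond 1 UMI, 1 at 20% or more mitochondrial UMIs, and 0 to 564 when 1 library was left out (564 without OE-MLKL 3). The share of the epithelial set differed by 23.2 points when thinned to 600 UMIs and by 18.0 points at 20% or more, against 15.8. That of S100a8/S100a9 was 2.13 at 600 UMIs against -5.63, a change of sign, and that of Cd3e was -1.14 against -0.613.

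Among single genes, 23 values past the threshold changed sign under an alternative, and 2 of them were past it again on the other side. Those were Top2a over all barcodes (from -0.49 to 0.317) and Clps in the epithelial class without enterocyte barcodes (from 0.86 to -1.38), both under depth weighting. The other 21 came to log2 fold changes that did not pass. Without enterocyte barcodes these were Krt8 (-0.092), Pmaip1 (-0.071), Casp8 (-0.202) and Irf7 (-0.204) over all barcodes, and Krt8 (-0.174) and C1qa (-0.075) in the epithelial class. Under depth weighting they were Fosb (0.025), Asns (0.034), Mdm2 (-0.004) and Mki67 (0.159) over all barcodes and Asns (0.098) without enterocyte barcodes. At 20% or more they were Fosb (0.016) and Cp (-0.29). With no TMM and without enterocyte barcodes they were Cxcr2 (0.021), Hsph1 (0.014), Atf4 (0.065), Ssbp1 (0.032), Pink1 (0.066) and Ifit1 (0.009) over all classes, and Ssbp1 (0.031) and Pink1 (0.02) in the epithelial class. Of 739 results for single genes, 154 kept their call under each alternative run. High-mt barcodes had a median of 1172 to 1304 non-mitochondrial UMIs over the libraries. Such depth can limit the detection of sparse genes, which was not tested for the smaller classes.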
